A study of Rattus norvegicus with 12 samples.

Results

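The miR-99/100 and miR-125 families were followed in the hearts of sham-operated, infarcted and Yiqifumai-treated rats. Members were the 6 mature miRNAs rno-miR-99a-5p, rno-miR-99b-5p, rno-miR-99b-3p, rno-miR-100-5p, rno-miR-125a-5p and rno-miR-125b-5p, chosen by name. All 6 were on the array of 758 rat miRNAs, were detected on all 12 arrays and entered the test of 263 miRNAs. None of the 6 differed between the groups beyond the spread between replicates, in any of 3 comparisons. MiR-99b-5p and miR-125a-5p, which are encoded within 696 bases, varied together from array to array. So did miR-99a-5p and miR-100-5p, which are encoded on different chromosomes, and cross-hybridization between them was not tested. MiR-103-3p and miR-27b-3p varied with miR-99b-5p about as closely as miR-125a-5p did.

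The samples were male Wistar rats with 4 arrays per group and 1 array per sample. Sham rats were operated on without ligation and received saline. MI rats had the left anterior descending coronary artery ligated, were kept in the study by electrocardiogram and ejection fraction, and received saline. YQFM rats had the same ligation and received Yiqifumai Injection, a preparation of ginseng, Ophiopogon and Schisandra, at 5 mg/kg/d for 28 days from 4 weeks after surgery. RNA came from the left ventricle near the infarct. No group of unligated rats received YQFM, so that YQFM was seen on the infarcted background alone. The comparison of MI with Sham asks which miRNAs accompany heart failure after infarction. That of YQFM with MI asks which miRNAs differ between treated and untreated infarcted rats.

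MicroRNAs of the miR-99/100 family repress parts of the mTOR pathway and, together with let-7, have been linked to the poor regeneration of the adult mammalian heart. MiR-125 is the vertebrate counterpart of lin-4 of the nematode, the microRNA that was discovered first, and it acts on developmental timing factors such as LIN28. MiR-125b is also known from cardiac fibroblasts, where it promotes the change to myofibroblasts. In vertebrates a miR-99/100 gene, a let-7 gene and a miR-125 gene lie in one transcript, and the unit has been copied to several chromosomes.

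Mature sequences were taken from RefSeq (GRCr8), where 5 of the 6 members were matched. They are shown because the seed, which selects the targets, defines the families. The seed, bases 2 to 8 counted from the 5′ end, is in capitals.
miR-100-5p: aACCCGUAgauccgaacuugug
miR-99b-5p: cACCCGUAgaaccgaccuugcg
miR-125a-5p: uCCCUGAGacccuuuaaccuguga
miR-125b-5p: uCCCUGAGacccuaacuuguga
miR-99b-3p: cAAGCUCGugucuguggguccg
MiR-100-5p and miR-99b-5p have the same seed and differ at 4 positions outside it, A1C, U11A, A16C and U21C, with the base of miR-100-5p given first. MiR-125a-5p has 24 bases and miR-125b-5p has 22, and they share the first 13 and the last 5 bases. MiR-99b-3p is the opposite arm of the miR-99b hairpin and has a seed of its own. Of the other miRNAs on the array, 2 carried a member's seed. MiR-351-5p, with the miR-125 seed, was detected on no array, and miR-99a-3p, with the seed of miR-99b-3p, was detected on 1.

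The members come from 3 clusters. On chromosome 1, Mir99b, Mirlet7e and Mir125a span 696 bases, all inside the protein-coding gene Spaca6. On chromosome 8, Mir100, Mirlet7a-2 and Mir125b1 span 51.8 kb and overlap the annotated genes Lnc215 and Mir100hgl. On chromosome 11, Mir99a, Mirlet7c1 and Mir125b2 span 45.3 kb and overlap the lncRNA gene LOC103693508. MiR-125b-5p is made from the chromosome 8 and the chromosome 11 gene, and an array signal cannot be divided between them. The tight cluster on chromosome 1 carries 3 of the 6 members on hairpins at chr1:67350064-67350133 and chr1:67350675-67350759, plus strand. They are printed with both arms in capitals, since both arms of each were measured.
Mir99b hairpin: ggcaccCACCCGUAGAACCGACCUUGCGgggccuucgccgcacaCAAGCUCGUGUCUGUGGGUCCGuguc
Mir125a hairpin: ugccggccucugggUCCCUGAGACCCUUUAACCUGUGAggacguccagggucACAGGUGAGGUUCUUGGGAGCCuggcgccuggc

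Between 211 and 268 miRNAs were detected per array. Signals were background-subtracted spot intensities, averaged over spots and probes, scaled to each array's 75th percentile and given here as log2. By the barcodes in the file headers there were 3 slides. MI replicates 1 to 3 were on slide 1, MI replicate 4 and YQFM replicate 1 on slide 2, and all Sham arrays with YQFM replicates 2 to 4 on slide 3. Slide and group are therefore confounded for MI against Sham, and only the 2 arrays of slide 2 link them through YQFM. YQFM against MI is largely confounded with slide too, since only the 2 arrays of slide 2 put these groups on one slide. For MI replicate 4 and Sham replicate 4 the source names gave other groups than the titles, which were used here. Nothing in the labels shows whether replicates are separate rats, so p-values measure the spread between these samples. Of 6 cardiomyocyte miRNAs taken as markers, 4 were detected on all arrays, and miR-208b-3p was detected on none.

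MiR-99a-5p and miR-100-5p, the chromosome 11 and chromosome 8 members that open their clusters, followed one another closely. The log2 signal of miR-99a-5p was 8.79, 8.47, 8.51 and 8.57 in Sham, 9.20, 8.96, 8.64 and 8.48 in MI, and 8.88, 8.48, 8.60 and 8.39 in YQFM, each in the order of replicates 1 to 4. MI replicates 1 and 2 lay above every Sham array, while MI replicates 3 and 4 lay within the Sham range. The log2 signal of miR-100-5p was 6.70, 6.33, 6.58 and 6.51 in Sham, 7.20, 6.95, 6.58 and 6.60 in MI, and 6.98, 6.34, 6.62 and 6.40 in YQFM. The same MI arrays were high and the other two lay within the Sham range, and YQFM replicate 1 was the highest array of its group for both miRNAs. The 3 groups overlapped for each of the 6 members, while in MI against Sham, YQFM against MI and YQFM against Sham the groups did not overlap for 12.2%, 6.46% and 6.08% of the tested miRNAs.

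MiR-99b-5p and miR-125a-5p, the outer genes of the chromosome 1 cluster, showed no order by group. The log2 signal of miR-99b-5p was 4.49, 4.05, 4.44 and 4.19 in Sham, 4.51, 4.45, 4.07 and 4.84 in MI, and 4.84, 4.16, 4.41 and 4.18 in YQFM. The highest arrays were MI replicate 4 and YQFM replicate 1, which shared slide 2. The log2 signal of miR-125a-5p was 6.46, 6.01, 6.46 and 6.09 in Sham, 6.39, 6.34, 5.90 and 6.46 in MI, and 6.67, 6.05, 6.32 and 6.02 in YQFM. Its 3 group means lay within 0.016 of each other on the log2 scale, against a pooled SD within groups of 0.27.

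MiR-99b-3p, the opposite arm of miR-99b-5p, had the narrowest spread, with a pooled SD within groups of 0.15. Its log2 signal was 8.09, 7.82, 7.93 and 7.93 in Sham, 8.30, 7.93, 8.06 and 7.93 in MI, and 7.68, 8.01, 7.86 and 7.70 in YQFM. MI replicate 1 was the highest array and YQFM replicates 1 and 4 were the lowest. In Sham replicate 3, MI replicate 2 and MI replicate 4 its scaled signal was 244.019, the value to which all 75th percentiles were scaled. MiR-99b-3p was thus the scaling reference on those arrays, and its spread is not independent of the scaling. MiR-125b-5p had the widest spread, with a pooled SD of 0.36. Its log2 signal was 9.07, 8.91, 9.19 and 8.95 in Sham, 9.28, 9.35, 8.71 and 9.38 in MI, and 10.04, 8.97, 9.03 and 9.04 in YQFM. YQFM replicate 1 stood far above the other YQFM arrays, and MI replicate 3 was below every other array.

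**Figure D1:**
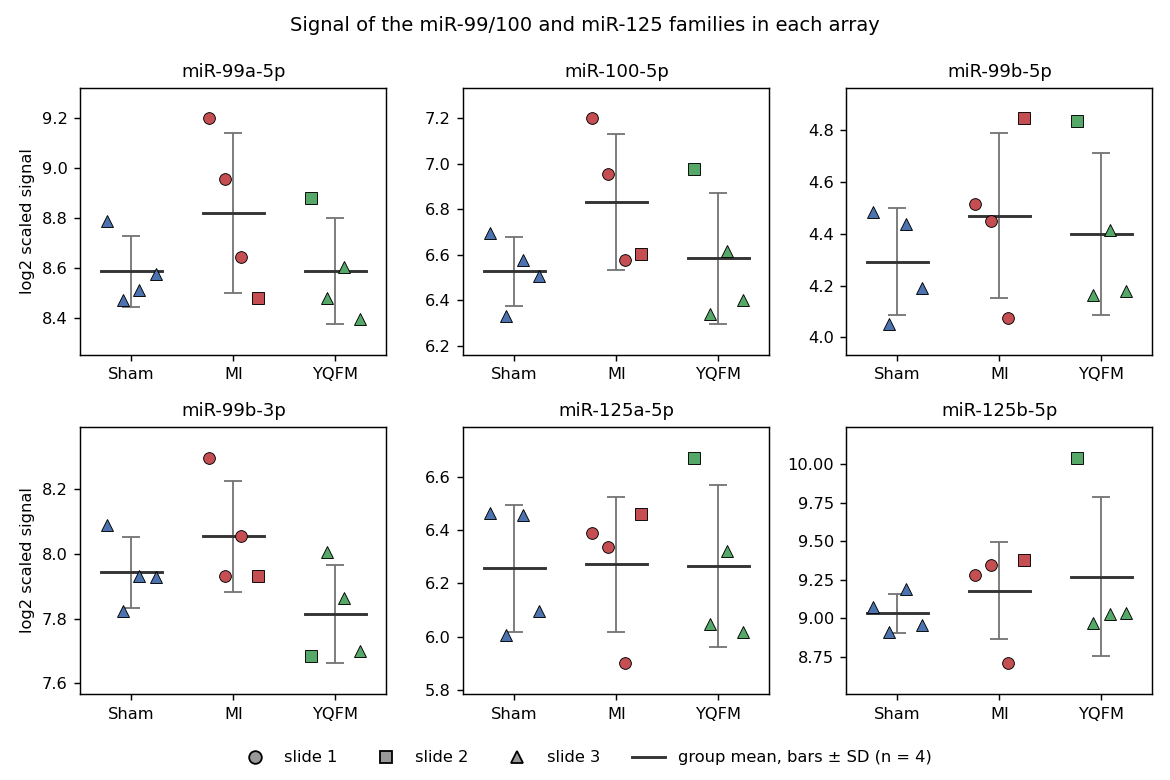
Log2 scaled signal of each of the 6 miRNAs (vertical axis, a separate range for each) in the 4 Sham, 4 MI and 4 YQFM arrays, with the slide of each array given by the symbol, the group mean by a line and its SD by bars. The groups overlap for all 6 miRNAs, and the highest miR-125b-5p value is YQFM replicate 1 at 10.04.

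In MI against Sham, limma called none of the 6 members at an adjusted p of 0.05, against a background of 7.22% of the 263 miRNAs tested (19, of which 1 was higher and 18 were lower in MI). No member had an unadjusted p under 0.05, where the background was 29.3%. All 6 estimates lay above 0, against 41.8% of all tested miRNAs, with a median of 0.16 against -0.04 over all, and the 6 share arrays and clusters and are not independent. The largest was that of miR-100-5p, whose log2 ratio was 0.31 ± 0.17 (SE, adjusted p = 0.274), a fold of 1.24 with a 95% confidence interval from 0.949 to 1.61. MiR-99a-5p had a log2 ratio of 0.23 ± 0.16 (adjusted p = 0.372), miR-99b-5p of 0.18 (adjusted p = 0.610), miR-125b-5p of 0.15 (adjusted p = 0.736) and miR-99b-3p of 0.11 (adjusted p = 0.563). For miR-125a-5p the log2 ratio was 0.02 (adjusted p = 0.972), with a fold interval from 0.768 to 1.33. The exact two-sided permutation test gave its smallest p among the members for miR-100-5p, at 0.143, where 4 arrays against 4 can reach 0.0286.

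In YQFM against MI, limma called none of the 6 members and none of the 263 miRNAs (0%), with 50 miRNAs (19%) at an unadjusted p under 0.05 and none by the methods' t-test after adjustment. Of the members, 1 had an estimate above 0, that of miR-125b-5p, against 47.9% of all tested miRNAs. MiR-99b-3p came nearest to the threshold, with a log2 ratio of -0.24, an unadjusted p of 0.0536 and an adjusted p of 0.258. MiR-100-5p had a log2 ratio of -0.25 and miR-99a-5p of -0.23, each with an adjusted p of 0.515. MiR-99b-5p had -0.07, miR-125a-5p -0.01 and miR-125b-5p 0.09. In YQFM against Sham, which shares its arrays with the other comparisons, none of the 6 and none of the 263 (0%) were called, and 15 miRNAs (5.7%) had an unadjusted p under 0.05. There 5 of the 6 estimates lay above 0, against 29.3% of all tested miRNAs, and they ran from -0.13 for miR-99b-3p to 0.24 for miR-125b-5p, and that of miR-99a-5p was 0.00.

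Over the 18 comparisons of the 6 members, the 95% confidence intervals of the fold ran from 0.646 at the lowest bound to 1.69 at the highest. These are the outermost bounds, and the interval was narrower for miR-99b-3p, from 0.912 to 1.28 in MI against Sham. Some values of miR-99b-3p were set by the scaling. The highest group mean was that of MI for 5 of the 6 members and that of YQFM for miR-125b-5p. Neighbouring group means differed by less than the spread within groups or by an amount that failed the test in every case.

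**Figure D2:**
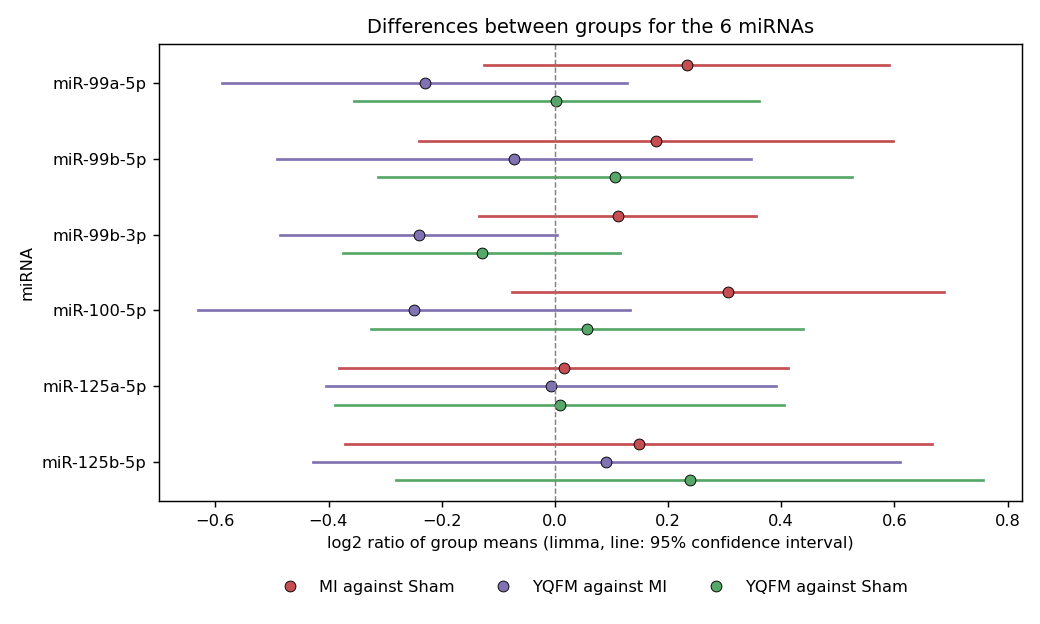
Log2 ratios of group means (horizontal axis) of the 6 miRNAs (vertical axis) in MI against Sham, YQFM against MI and YQFM against Sham, from limma over 12 arrays, with 95% confidence intervals as lines. Every interval includes 0, and that of miR-99b-3p in YQFM against MI reaches it most narrowly.

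Single arrays carried some of these estimates. Without YQFM replicate 1, the log2 ratio of miR-125b-5p was -0.17 in YQFM against MI and -0.02 in YQFM against Sham, in place of 0.09 and 0.24. Within slide 3, the 3 YQFM arrays and the 4 Sham arrays differed for the members by -0.13 (miR-125a-5p) to -0.02 (miR-125b-5p) on the log2 scale, with exact permutation p from 0.400 to 0.857, where 3 against 4 can reach 0.0571. With the slide as a fixed block, the MI against Sham estimates of the 5p members were all below 0, from -0.68 for miR-125b-5p to -0.03 for miR-99b-5p, while miR-99b-3p stayed at 0.16, with adjusted p of at least 0.625. That fit joins MI to Sham through the 2 arrays of slide 2 alone, on which YQFM replicate 1 exceeded MI replicate 4 by 0.66 for miR-125b-5p and by 0.40 for miR-99a-5p. The sign of the MI against Sham estimates was thus not settled by these arrays. In YQFM against MI the fixed block gave 0.40 for miR-99a-5p, 0.38 for miR-100-5p and 0.21 for miR-125a-5p, all below 0 without it. MiR-99b-5p, miR-99b-3p and miR-125b-5p kept their signs there. Without the 2 arrays whose labels conflict, the MI against Sham ratio was 0.38 for miR-100-5p (adjusted p = 0.248), 0.34 for miR-99a-5p (adjusted p = 0.228) and -0.10 for miR-125a-5p (adjusted p = 0.834).

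The probes of a miRNA were also compared with each other. Each 5p member was read by 2 probes of 15 to 20 bases, and in the 4 matched 5p members none of them covered the whole seed. The median coefficient of variation between spots was 2.42% for miR-125b-5p, 2.60% for miR-99a-5p, 5.14% for miR-125a-5p, 5.18% for miR-100-5p and 8.41% for miR-99b-5p. In MI against Sham the 2 probes gave log2 ratios of 0.28 and 0.21 for miR-99a-5p, 0.20 and 0.17 for miR-99b-5p, 0.34 and 0.29 for miR-100-5p and 0.09 and 0.15 for miR-125b-5p. For miR-125a-5p they lay on either side of 0, at -0.07 and 0.03, and so they did in YQFM against MI, at 0.06 and -0.02, all within 1 SE of 0. MiR-99b-3p was read by 4 shorter probes of 12 to 15 bases, with 16.7% between spots. In MI against Sham its 13-base probe gave a log2 ratio of -0.25, while the others gave 0.24 (12 bases), 0.13 (14 bases) and 0.37 (15 bases). In YQFM against MI the 13-base probe gave 0.04 and the others -0.40, -0.21 and -0.41. No probe passed the test alone, the lowest adjusted p being 0.105, for the 12-base probe in YQFM against MI. The probes of miR-100-5p and miR-99b-5p had 3 mismatches to each other's target and those of miR-125a-5p and miR-125b-5p had 5 to 7. The sequence of miR-99a-5p was not matched, so mismatches between it and the probes of miR-100-5p were not counted. Cross-hybridization was not tested for any of them.

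**Figure D3:**
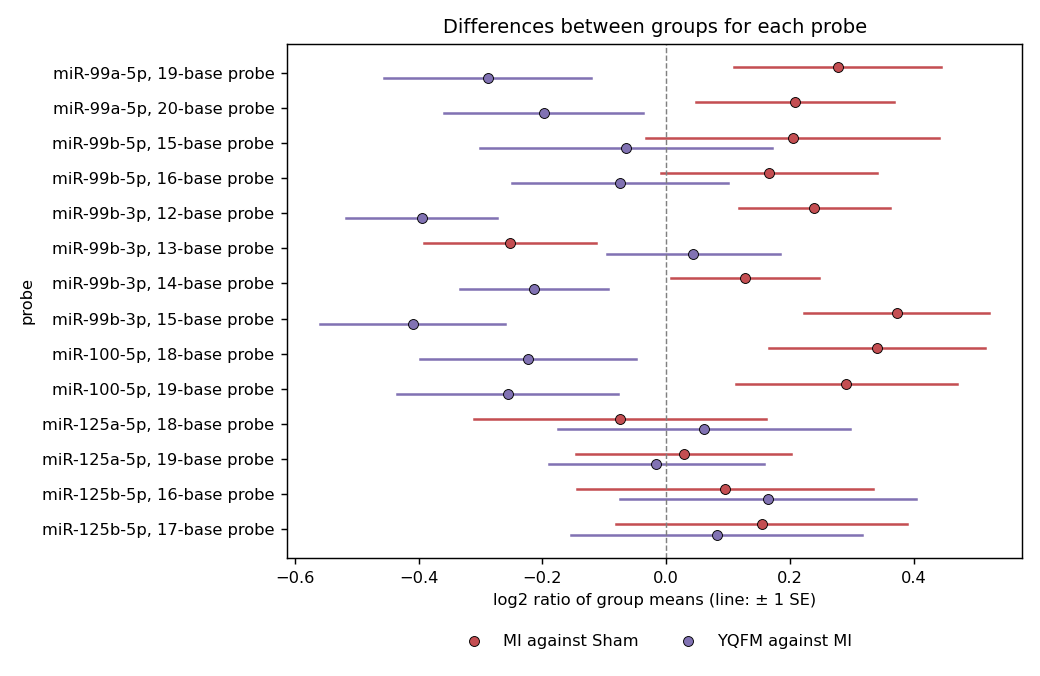
Log2 ratios of group means (horizontal axis) for each probe of the 6 miRNAs (vertical axis, by probe length) in MI against Sham and YQFM against MI, with lines of ± 1 SE. The 13-base probe of miR-99b-3p lies on the other side of 0 from the other 3 probes of that miRNA in both comparisons.

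Pairs of miRNAs from one cluster were then compared across the 12 arrays, 10 pairs in all, with two-sided permutation p-values from 100000 resamples adjusted over the 10 pairs. MiR-99b-5p and miR-125a-5p had a Pearson's r of 0.925 (adjusted permutation p = 0.00020, n = 12) and a Spearman's rho of 0.923 (adjusted permutation p = 0.00040). The r was 0.958 for deviations from the group means, 0.967 within the 7 arrays of slide 3 and 0.964 without MI replicate 4 and YQFM replicate 1, the arrays farthest from the median. For comparison, r over all 20100 pairs of the 201 miRNAs detected on all arrays had a median of 0.146 and a 95th percentile of 0.786, so that a positive r alone is common here. For the arms of a single hairpin, miR-99b-5p and miR-99b-3p, r was -0.05 (adjusted permutation p = 0.889, rho = 0.134). It was 0.443 without MI replicate 4 and YQFM replicate 1 and 0.486 within slide 3, so that its sign depended on the arrays used. The sign depended on the scaling too. With all 12 arrays r was 0.60 without scaling, 0.0976 with median scaling and -0.436 with quantile normalization.

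The let-7 genes in the middle of the clusters encode repressors of growth and cell cycle genes. Let-7c-5p was correlated with miR-99a-5p (r = 0.857, rho = 0.860, adjusted permutation p = 0.00332), and without the 2 farthest arrays r was 0.839. Let-7a-5p was correlated with miR-100-5p (r = 0.836, rho = 0.832, adjusted permutation p = 0.00323), with 0.739 without the 2 farthest arrays. On chromosome 1, let-7e-5p had an r of 0.724 with miR-99b-5p (rho = 0.832, adjusted permutation p = 0.0115) and of 0.769 with miR-125a-5p (rho = 0.790, adjusted permutation p = 0.00453). Without the 2 farthest arrays these were 0.767 and 0.682, the latter no longer past the threshold (adjusted permutation p = 0.0593). With quantile normalization the latter pair passed (r = 0.681, adjusted permutation p = 0.0354) and the other three did not, since r was 0.521 for miR-99a-5p with let-7c-5p, 0.254 for miR-100-5p with let-7a-5p and 0.50 for miR-99b-5p with let-7e-5p, with adjusted permutation p of 0.124, 0.465 and 0.124. Within slide 3, of the 4 pairs that of miR-99a-5p with let-7c-5p passed (r = 0.897, adjusted permutation p = 0.0289), and the other three had r from 0.788 to 0.856 with adjusted permutation p from 0.0723 to 0.112. Over all 12 arrays, 97.7% of the 20100 pairs had a lower r than miR-99a-5p with let-7c-5p and 96.9% than miR-100-5p with let-7a-5p. For let-7e-5p the shares were 92.1% with miR-99b-5p and 94.2% with miR-125a-5p. The permutation p tests against no correlation, not against these other pairs. Let-7a-5p and let-7c-5p are also made from genes outside these clusters, and their signals hold all sources. The let-7 partners have nearly the same mature sequence, and cross-hybridization between let-7 probes was not tested. Let-7 miRNAs that are not among the partners had a higher r, let-7i-5p with miR-100-5p (0.960) and let-7d-5p with miR-99a-5p (0.931). In MI against Sham the 3 let-7 partners had log2 ratios between 0.07 and 0.18 with none called, where the background was 7.22%, and with the slide as a fixed block all 3 lay below 0.

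MiR-125b-5p was compared with the partners from both clusters that encode it. Its r was 0.451 with miR-99a-5p (rho = 0.427, adjusted permutation p = 0.158) and 0.630 with miR-100-5p (rho = 0.692, adjusted permutation p = 0.0352). Its r with let-7c-5p was 0.820 (rho = 0.699, adjusted permutation p = 0.00386) and with let-7a-5p 0.828 (rho = 0.692, adjusted permutation p = 0.00323). The last 3 rested in part on single arrays, since without MI replicate 1 and YQFM replicate 1 r was 0.554, 0.575 and 0.637, with adjusted permutation p of 0.118, 0.118 and 0.0798. Within slide 3, r with let-7c-5p was 0.445 and with let-7a-5p 0.299. Over all 12 arrays, 73.6% of the 20100 pairs had a lower r than miR-125b-5p with miR-99a-5p and 86.5% than with miR-100-5p. For let-7c-5p and let-7a-5p the shares were 96.4% and 96.7%.

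**Figure D4:**
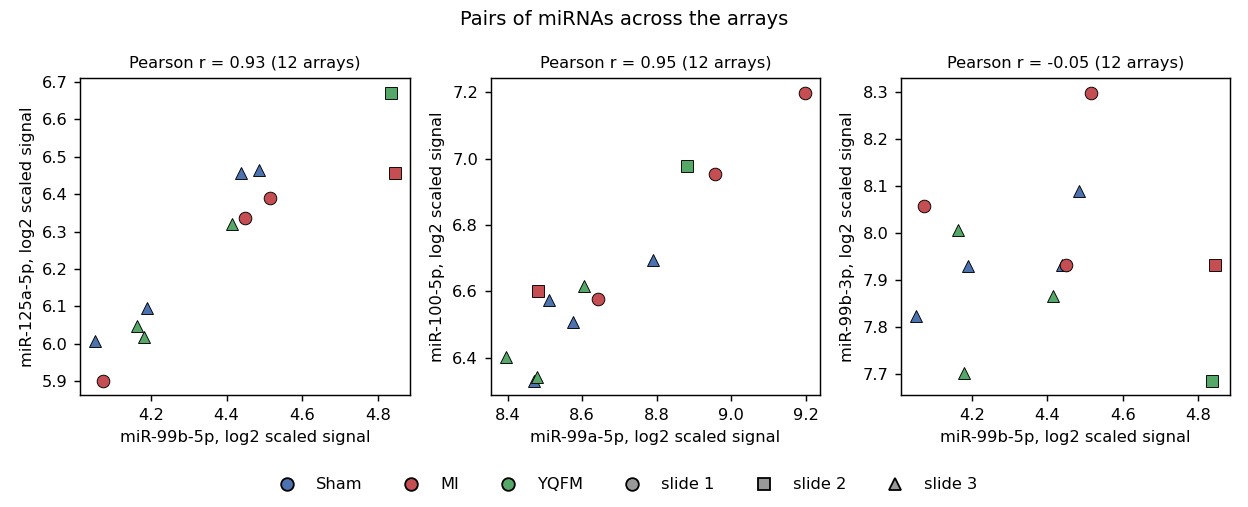
Log2 scaled signals of pairs of miRNAs in the 12 arrays, coloured by group and with the slide given by the symbol: miR-99b-5p with miR-125a-5p (r = 0.925), miR-99a-5p with miR-100-5p (r = 0.949) and miR-99b-5p with miR-99b-3p (r = -0.05). The first and the middle panel rise from left to right with all groups mixed, and the last panel shows no order.

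As a description, each member was set against the other 200 miRNAs detected on all arrays by Pearson's r over the 12 arrays, which share scaling and slides. MiR-99a-5p was most like its family member miR-100-5p (0.949), followed by let-7d-5p (0.931) and let-7i-5p (0.913). MiR-100-5p was most like let-7i-5p (0.960), miR-16-5p (0.956) and miR-99a-5p. MiR-99b-5p was most like miR-125a-5p, its cluster neighbour (0.925), then miR-103-3p (0.920) and miR-27b-3p (0.915). By Spearman's rho it was closer to miR-103-3p (0.965) and miR-27b-3p (0.958) than to miR-125a-5p (0.923). MiR-125a-5p was most like miR-99b-5p, miR-26b-5p (0.900) and miR-152-3p (0.878). MiR-99b-3p, some of whose values were set by the scaling, was most like miR-155-5p (0.869), miR-3099 (0.811) and miR-3584-5p (0.809).

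MiR-125b-5p was most like miR-199a-5p (r = 0.948, rho = 0.860), miR-140-5p (r = 0.945, rho = 0.860) and miR-199a-3p (r = 0.927, rho = 0.902). These r values include YQFM replicate 1, where miR-125b-5p stood far above its group, and were not computed without it. MiR-199a-5p and miR-199a-3p belong to the list of 4 miRNAs taken as fibroblast markers, with miR-21-5p and miR-214-3p. The latter were not among the 3 miRNAs most like miR-125b-5p. The log2 of the summed scaled signals of this list was 8.57 to 9.13 in Sham, 8.88 to 10.1 in MI and 8.93 to 10.6 in YQFM, and all 4 were detected on every array. In MI against Sham the 4 had log2 ratios from 0.56 to 0.79 with a median of 0.67, and none was called. The part of fibroblast content in the miR-125b-5p values was not tested, and in bulk tissue more cells of a type and more RNA per cell cannot be told apart. Of 6 leukocyte miRNAs taken as markers, 4 were detected on all arrays and miR-142-3p and miR-142-5p on none. The log2 of the summed scaled signals of the list was 8.37 to 8.59 in Sham, 8.33 to 8.68 in MI and 8.36 to 8.64 in YQFM.

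The other arms of the miR-125 hairpins are no members but come from the same precursors, and in MI against Sham and YQFM against MI their estimated ratios were larger in size than those of the miR-125 5p arms. They are printed with the seed in capitals, since each has a seed of its own while their 3′ ends resemble each other.
miR-125a-3p: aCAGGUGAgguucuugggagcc
miR-125b-1-3p: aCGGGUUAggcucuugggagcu
miR-125b-2-3p: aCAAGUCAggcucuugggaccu
The log2 signal of miR-125a-3p was 9.36, 9.94, 9.11 and 9.36 in Sham, 8.78, 8.75, 8.75 and 9.10 in MI, and 8.81, 9.66, 9.85 and 9.78 in YQFM. All MI arrays lay below all Sham arrays, a separation seen for 12.2% of the tested miRNAs, and YQFM replicate 1 lay with the MI arrays. The log2 signal of miR-125b-1-3p was 6.40, 7.62, 5.89 and 6.61 in Sham, 6.18, 5.68, 5.41 and 5.94 in MI, and 5.77, 7.20, 7.16 and 7.27 in YQFM. Here too YQFM replicate 1 lay within the MI range. MiR-125b-2-3p was dim and was detected on 10 arrays, with log2 signals of 3.22, 3.78, 3.50 and 3.34 in Sham, 2.80, 2.90, 2.38 and 3.24 in MI, where 2.38 is the floor, and 3.45, 3.80, 3.40 and 3.81 in YQFM. All YQFM arrays lay above all MI arrays, as for 6.46% of the tested miRNAs.

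None of these arms passed the threshold in limma. In MI against Sham the log2 ratio was -0.60 ± 0.24 for miR-125a-3p (SE, adjusted p = 0.116), -0.83 ± 0.40 for miR-125b-1-3p (adjusted p = 0.194) and -0.63 ± 0.19 for miR-125b-2-3p (adjusted p = 0.0578). In YQFM against MI it was 0.68 (adjusted p = 0.134), 1.04 (adjusted p = 0.188) and 0.79 (adjusted p = 0.0786) in the same order, and the MI arrays are shared by the comparisons. Whether the arms of a hairpin differed in their response was not tested. Calls depended on the arrays of slide 2. Without either of these arrays, no MI array shares a slide with an array of another group. Slide and group then cannot be told apart in comparisons with MI. The same holds without both arrays whose labels conflict. Without YQFM replicate 1, all 3 passed in YQFM against MI (adjusted p = 0.0192, 0.0362 and 0.0393), where 23 of all 263 miRNAs (8.75%) did. In the same fit miR-125a-3p passed in MI against Sham (adjusted p = 0.0456), as did 29 of the 263 (11%). Without MI replicate 4, miR-125b-2-3p passed in MI against Sham (adjusted p = 0.0110) and in YQFM against MI (adjusted p = 0.00925), where 62 (23.6%) and 28 (10.6%) of all miRNAs did. Without both arrays whose labels conflict it passed in both as well (adjusted p = 0.0170 and 0.0152), beside 58 (22.1%) and 28 (10.6%) of all miRNAs.

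Values of miR-125a-3p separated by slide. Its log2 signals were 8.75 to 8.78 on slide 1, 8.81 and 9.10 on slide 2, and 9.11 to 9.94 on slide 3, with no overlap between slides. Those of miR-125b-1-3p overlapped, at 5.41 to 6.18, 5.77 and 5.94, and 5.89 to 7.62 in the same order. MiR-125b-2-3p overlapped between slide 2 (3.24 and 3.45) and slide 3 (3.22 to 3.81). On slide 2, YQFM replicate 1 minus MI replicate 4 was -0.29 for miR-125a-3p, -0.17 for miR-125b-1-3p and 0.21 for miR-125b-2-3p. With the slide as a fixed block the MI against Sham ratio was 0.61 for miR-125a-3p, 0.75 for miR-125b-1-3p and -0.0069 for miR-125b-2-3p, against -0.60, -0.83 and -0.63 without it. The ratio of miR-125b-2-3p in MI against Sham was also near 0 with normexp background correction, at -0.085 (adjusted p = 0.888). These arms were read by short probes of 12 to 17 bases, with a coefficient of variation between spots of 16.5%, 35.3% and 56.6%. The 15-base probes of the miR-125b arms differ in 1 base, shown in capitals.
miR-125b-1-3p probe: agCtcccaagagcct
miR-125b-2-3p probe: agGtcccaagagcct
Their signals may hold both arms, and their share was not tested.

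**Figure D5:**
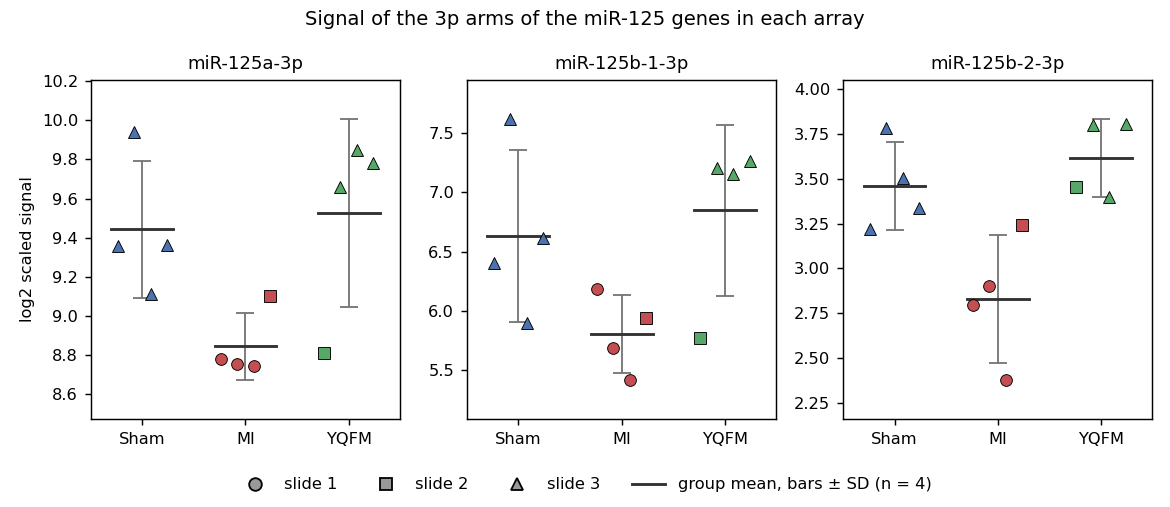
Log2 scaled signal (vertical axis, a separate range for each) of miR-125a-3p, miR-125b-1-3p and miR-125b-2-3p in the 4 Sham, 4 MI and 4 YQFM arrays, with the slide given by the symbol, the group mean by a line and its SD by bars. For miR-125a-3p and miR-125b-1-3p, YQFM replicate 1 of slide 2 (8.81 and 5.77) lies among the MI arrays.

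Of the remaining arms, miR-100-3p was detected on no array and miR-99a-3p on MI replicate 4 alone, where its scaled signal was set to the floor, while Mir99b, Mir125a and the miR-125b genes gave signal from both arms. Levels of different miRNAs were not compared, since each has probes of its own.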

How the data were processed

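RNA of each sample was hybridized to 1 of 12 one-colour Agilent rat miRNA arrays. The authors deposited the scanner output (Agilent Feature Extraction 10.7.1.1) with spot intensity values that the software had detrended and corrected for background but not scaled, and a processed intensity table, which served as an alternative. GeneSpring was named for further analysis, and its normalization is not given in the sources used here.

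Control and outlier spots were left out. Spot intensities were averaged per probe and then per miRNA. Each array was scaled by its 75th percentile, taken over 201 miRNAs that all arrays detected, to the mean percentile of the arrays. Values under a floor of 5.20 (2.38 as log2) were raised to it. A probe counted as detected where over 50% of its spots were well above background. The 263 miRNAs detected on at least 2 of 4 arrays in some group were tested over all 12 arrays. Limma 3.58.1 was used (R 4.3.3, two-sided, Benjamini-Hochberg, threshold 0.05). The procedure was tried on simulated data with independent noise and no slide effect, which does not cover the confounding of slide and group here. Single values were compared by exact permutation, and 10 cluster pairs by permutation of Pearson's r and Spearman's rho (scipy 1.17.1, 100000 resamples). The number of arrays and the signal over background limit the precision. Figures were drawn with matplotlib 3.10.9.

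Groups came from the sample titles. The members, their other arms, let-7 partners and marker lists were chosen with earlier results of these data known, and the 3 miRNAs most like each member were named by Pearson's r. Alternatives were normexp, total gene signal, the authors' values, the brightest probe, other scalings, floors, filters and detection calls, the replicate number or slide as a block, a trended variance, the methods' t-test, a fit of only the groups compared, each probe alone, and leaving out arrays. Deviations of same-numbered arrays correlated between -0.64 and 0.34. Differently numbered arrays were not compared, so whether replicate numbers pair the samples was not settled. The scan date was 1 day for all arrays and could not serve as a block. Sequences and positions came from RefSeq (GRCr8).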

Additional observations from a re-analysis of the deposited data

Results flagged for a closer look

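In 36 groups of 4 arrays (12 miRNAs, 3 groups each), 5 held an array whose gap to the nearest other exceeded Dixon's 95% critical value, where chance flags about 1 in 20 groups. MiR-125b-5p was far above the rest of its group in YQFM replicate 1, at a log2 signal of 10.04 against 9.04 for the next array, and far below it in MI replicate 3, at 8.71 against 9.28. Let-7c-5p was likewise highest in YQFM replicate 1, at 11.31 against 10.57. MiR-125b-1-3p was lowest in YQFM replicate 1, at 5.77 against 7.16, and miR-125a-3p was highest in MI replicate 4, at 9.10 against 8.78. Of the 5 values, 4 belong to the 2 arrays of slide 2, and the part of the slide in them was not tested.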

How the results depend on the processing

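None of the 18 comparisons of the 6 members passed the threshold in any of the 33 to 35 alternatives, and the lowest adjusted p was 0.0794, for miR-100-5p in MI against Sham after quantile normalization. Signs were less firm, since 70 of the 600 alternative values of the members lay on the other side of 0. Several alternatives, such as the replicate block, the trended variance and the methods' t-test, leave a member's ratio unchanged. They could not turn its sign, so that the share of 70 in 600 does not measure how firm the signs were. The limits are the 4 arrays a group, the slides, and for miR-125b-2-3p a signal near the floor. The causes of the changes below were not tested.

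The 19 miRNAs called in MI against Sham became 0 with normexp, with the total gene signal, without scaling and with the slide as a fixed or random block, 1 with median scaling, 2 with the brightest probe and (1 higher, 1 lower) with quantile normalization, 3 with the percentile over all miRNAs and with detection from any spot, 6 with the methods' t-test, 7 with only miRNAs detected on all arrays and with no filter, and 58 without the 2 arrays whose labels conflict. With the replicate number as a block, 10 were called. Whether the replicate numbers pair the samples was not settled, and the replicate block changed no other call. In YQFM against MI, where 0 were called, the count was 1 with the brightest probe, 2 with quantile normalization and 28 without the 2 arrays. Leaving out 1 array gave 4 to 62 calls in MI against Sham (4 without MI replicate 2 or 3, 7 without Sham replicate 1 or 4, 11 without MI replicate 1, 12 without Sham replicate 2, 29 without YQFM replicate 1 and 62 without MI replicate 4), and 0 to 28 in YQFM against MI (28 without MI replicate 4 and 23 without YQFM replicate 1). Without MI replicate 4 or YQFM replicate 1, no MI array shared a slide with an array of another group. The median ratio of all miRNAs moved by 0.14 in MI against Sham with median scaling, and without scaling by 0.11 in YQFM against MI and 0.14 in YQFM against Sham.

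With the slide as a fixed block, the log2 ratio in MI against Sham was -0.49 for miR-99a-5p, -0.029 for miR-99b-5p, -0.45 for miR-100-5p, -0.34 for miR-125a-5p, -0.68 for miR-125b-5p, 0.61 for miR-125a-3p and 0.75 for miR-125b-1-3p. In YQFM against MI it was 0.40 for miR-99a-5p, 0.38 for miR-100-5p, 0.21 for miR-125a-5p, -0.29 for miR-125a-3p and -0.17 for miR-125b-1-3p. In YQFM against Sham it was -0.094 for miR-99a-5p, -0.039 for miR-99b-5p, -0.074 for miR-100-5p, -0.13 for miR-125a-5p and -0.019 for miR-125b-5p. With the slide as a random block, MI against Sham gave -0.046 for miR-99a-5p, -0.15 for miR-125a-5p and -0.22 for miR-125b-5p, YQFM against MI 0.013 for miR-99a-5p and 0.078 for miR-125a-5p, and YQFM against Sham -0.033 for miR-99a-5p, -0.00089 for miR-100-5p and -0.070 for miR-125a-5p.

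Among the scalings, YQFM against MI turned without scaling for miR-99b-5p (0.053) and miR-125a-5p (0.12), with quantile normalization for miR-99b-5p (0.0054), with the percentile over all miRNAs for miR-125a-5p (0.017) and with median scaling for miR-125b-5p (-0.012), and YQFM against Sham turned without scaling for miR-99b-3p (0.027). Detection from any spot gave 0.011 for miR-125a-5p in YQFM against MI, and normexp gave -0.0010 for miR-99a-5p in YQFM against Sham. The brightest probe gave -0.0022 for miR-99b-3p in MI against Sham and -0.052 for miR-125b-5p in YQFM against MI. Single probes gave -0.25 and 0.044 for miR-99b-3p (13 bases, MI against Sham and YQFM against MI), -0.075, 0.062 and -0.013 for miR-125a-5p (18 bases, with YQFM against Sham last) and -0.011 for miR-99a-5p (19 bases, YQFM against Sham). Without the 2 arrays whose labels conflict, miR-125a-5p was -0.10 in MI against Sham, 0.056 in YQFM against MI and -0.045 in YQFM against Sham, miR-99b-5p was 0.053 in YQFM against MI and miR-99a-5p -0.0015 in YQFM against Sham.

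Leaving out 1 array, the ratio ran in MI against Sham from -0.068 to 0.14 for miR-125a-5p. In YQFM against MI it ran from -0.14 to 0.075 for miR-125a-5p, from -0.17 to 0.19 for miR-125b-5p and from -0.22 to 0.053 for miR-99b-5p. In YQFM against Sham it ran from -0.094 to 0.070 for miR-99a-5p, from -0.039 to 0.19 for miR-99b-5p, from -0.074 to 0.14 for miR-100-5p, from -0.13 to 0.091 for miR-125a-5p, from -0.019 to 0.34 for miR-125b-5p, from -0.027 to 0.32 for miR-125a-3p and from -0.030 to 0.58 for miR-125b-1-3p.

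Of the correlations, that of miR-99b-5p with miR-125a-5p passed in every alternative run, from 0.793 with quantile normalization to 0.971 without scaling. Quantile normalization lowered r to 0.521 for miR-99a-5p with let-7c-5p, 0.254 for miR-100-5p with let-7a-5p and 0.50 for miR-99b-5p with let-7e-5p, none past the threshold. Without scaling, miR-99a-5p with miR-125b-5p passed at 0.736 and miR-99b-5p with miR-99b-3p at 0.60. The latter pair had 0.0976 with median scaling, 0.486 within slide 3 and 0.443 without the 2 arrays farthest from the median. Without those arrays, r was 0.575 for let-7c-5p with miR-125b-5p, 0.554 for miR-100-5p with miR-125b-5p, 0.637 for let-7a-5p with miR-125b-5p and 0.682 for let-7e-5p with miR-125a-5p, none past the threshold. Within the 7 arrays of slide 3, r no longer passed for let-7c-5p with miR-125b-5p (0.445), miR-100-5p with let-7a-5p (0.831), miR-100-5p with miR-125b-5p (0.623), let-7a-5p with miR-125b-5p (0.299), miR-99b-5p with let-7e-5p (0.788) and let-7e-5p with miR-125a-5p (0.856).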

Other observations

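The miRNA most like miR-99b-3p, miR-155-5p, had an r of 0.869 with it but a Spearman's rho of 0.683 over the 12 arrays. For deviations from the group means, miR-125b-5p and miR-199a-5p had an r of 0.982 with YQFM replicate 1 included. It was 0.963 for miR-100-5p and let-7i-5p and 0.938 for miR-99a-5p and miR-100-5p. Across all 15 pairs of the 6 members, r ran from -0.31 (miR-99b-3p with miR-125b-5p) to 0.949.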
